A study of Macaca mulatta with 20 samples.

Results

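The T lineage transcription factor genes examined here were GATA3, MYB, BCL11B, TCF7, LEF1, IKZF1, RUNX1, RUNX3, NOTCH1 and DTX1. These 10 genes were taken from a list of regulators of T cell development, and every probe set that carried a listed gene as its single symbol in the array annotation was used. The rule gave 25 probe sets for 8 genes on the rhesus arrays, of 14132 genes read there, and 26 probe sets for 8 genes on the human arrays, of 19775. GATA3, MYB, BCL11B, IKZF1, RUNX3 and DTX1, 6 genes in all, had probe sets on both array types. TCF7 and RUNX1 were read on the rhesus arrays alone, and LEF1 and NOTCH1 on the human arrays alone. On the human arrays another 13 probe sets named RUNX1 together with other symbols and were not used.

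Rhesus macaque RNA came from thymus, cerebral cortex, immortalized fibroblasts, pancreas and testis. It was hybridized to the Rhesus Macaque Genome Array, designed for the rhesus genome, and to the Human Genome U133 Plus 2.0 Array, designed for the human genome. With 2 arrays per source and type there were 20 arrays. Human probes can mismatch rhesus RNA, and the study reports a loss of signal in probes with a single-base mismatch. The part of such mismatches in the human array levels was not tested. The sample labels give no genotype, treatment, age or number of animals, and name the repeated arrays technical replicates. The p-values therefore measure the spread between arrays of 1 RNA preparation and not between animals. Levels are log2 values of single probe sets, except for mean levels over marker lists, which are named as such.

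T cells are made in the thymus from progenitors that arrive from the bone marrow. A signal through the receptor NOTCH1, given by ligands on thymic epithelium, turns on TCF7 and GATA3, and BCL11B then commits the cells to the T lineage. MYB, IKZF1, RUNX1 and LEF1 act in the same cells at several steps, RUNX3 in the choice of the cytotoxic fate, and DTX1, a ubiquitin ligase, is a target and regulator of Notch signalling. These roles are known mainly from mouse and human work.

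Most markers of a source were highest there. Of 29 marker genes for the 5 sources measured on the rhesus arrays, 26 had their highest mean in the source they mark, and on the human arrays 33 of 36 did. The thymocyte markers were highest in thymus for 5 of 6 genes on the rhesus arrays and for 9 of 9 on the human arrays. The values of an array pair differed with an SD of 0.146 in thymus and of 0.137 to 0.281 elsewhere on the rhesus arrays, with pancreas highest. On the human arrays the SD was 0.157 in thymus and 0.151 to 0.218 in the others. On each array type 27 control probe sets for bacterial transcripts had means between 2.13 and 3.12 (rhesus) or between 2.14 and 3.12 (human). A level in that range is called the floor here, and a log2 difference from it is not an exact fold.

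Most of these genes were higher in thymus than in the other sources, and none was called lower than their mean. In these RNA mixtures more cells of a type and more RNA per cell cannot be told apart, nor can fewer cells and less RNA per cell. A probe set was called when the limma test of thymus minus the mean of the other 4 sources gave a Benjamini-Hochberg adjusted p below 0.05 and a log2 difference of at least 1. On the rhesus arrays 18 of the 25 probe sets were called higher, where 14.7% of all probe sets were, and on the human arrays 16 of 26, where 7.46% of all were. No probe set was called lower, beside 12.0% of all rhesus probe sets and 6.12% of all human ones. At an unadjusted p below 0.05 limma gave 1 lower rhesus probe set and 0 human ones, and an ordinary analysis of variance contrast gave 1 of each. The differences of called probe sets ran from 1.94 to 8.37 (rhesus) and from 1.32 to 8.78 (human). The median over all member probe sets was 5.61 and 3.28, beside -0.046 and -0.033 over all probe sets. Read from its brightest probe set, 7 of 8 genes were higher on the rhesus arrays, where 16.7% of all genes were higher and 18.1% lower, and 5 of 8 on the human arrays, where 9.65% were higher and 10.1% lower.

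**Figure D1:**
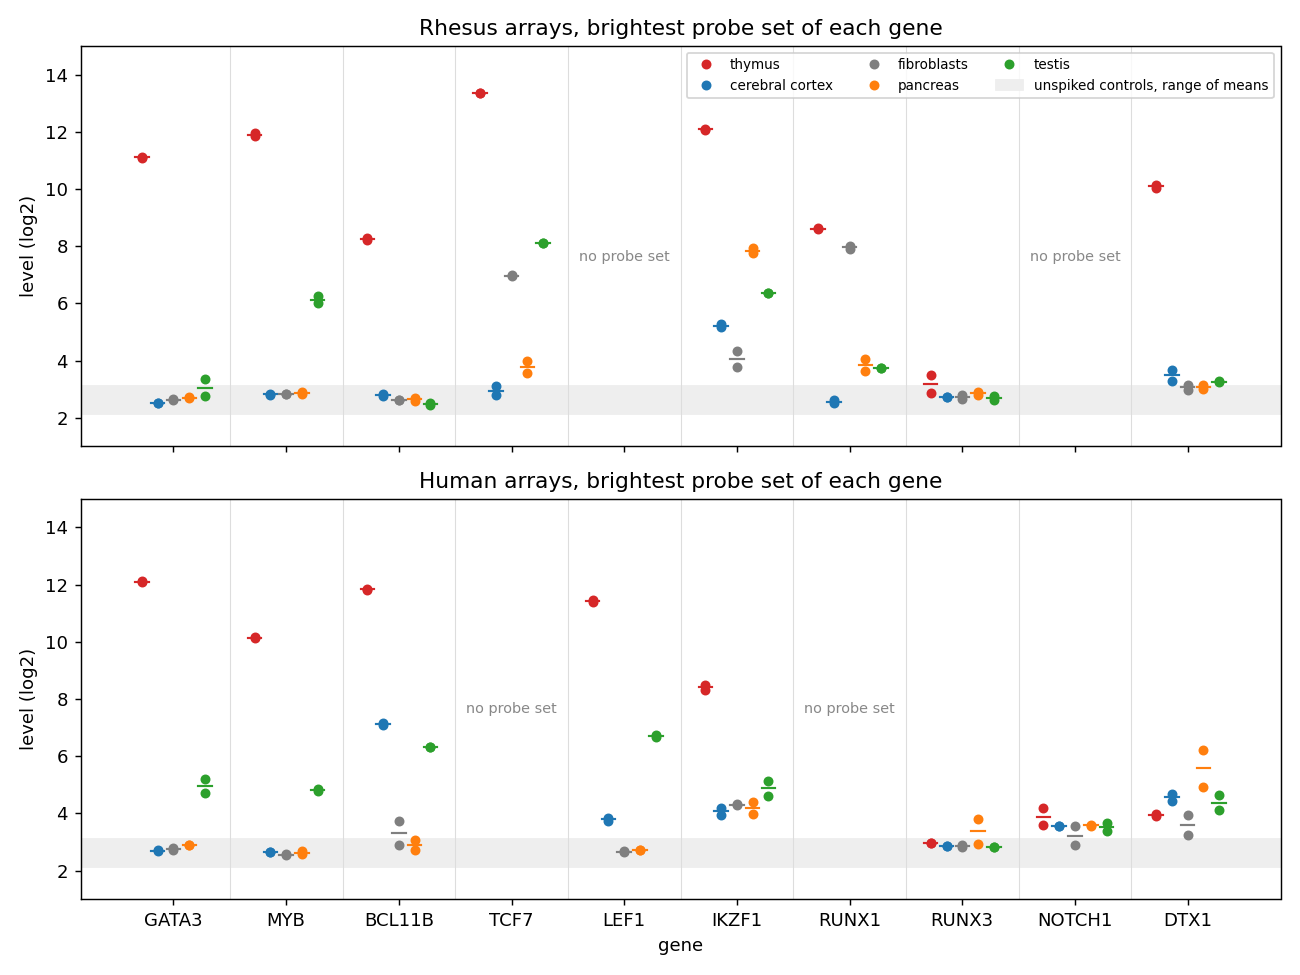
Log2 level of the brightest probe set of each gene (horizontal axis) on every array, rhesus arrays above and human arrays below. Each point is 1 array, the short line is the mean of the 2 arrays of a source, and the grey band is the range of means of the bacterial control probe sets. Thymus lies apart from all other sources for 6 genes on the rhesus arrays and for 5 on the human arrays, while RUNX3 and NOTCH1 stay close to the band.

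A higher level in thymus than the mean of the other sources does not exclude a source with a similar level. Thymus was therefore also set against each source in turn. On the rhesus arrays 17 of the 25 probe sets were called higher in thymus than in each of the other 4 sources, beside 5.80% of all probe sets, and on the human arrays 14 of 26, beside 2.96%. By the brightest probe set this held for 6 of 8 genes on the rhesus arrays, beside 6.30% of all genes, and for 5 of 8 on the human arrays, beside 3.58%. Among called probe sets all 4 other sources were at the floor for 6 rhesus and 7 human ones.

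GATA3, a zinc finger factor required from the first steps of the T lineage, was read by 2 rhesus and 3 human probe sets. Its brightest rhesus probe set was at 11.08 and 11.12 on the thymus arrays, against 2.51 and 2.51 in cortex, 2.62 and 2.65 in fibroblasts, 2.73 and 2.70 in pancreas and 2.77 and 3.34 in testis. The thymus arrays stood far above all the others, which lay at or next to the floor. The difference from the mean of the other 4 sources was 8.37 (standard error 0.131, adjusted p = 5.05e-08 from limma). The second rhesus probe set gave 6.75 (0.049), with thymus at 9.13 and 8.97. On the human arrays the brightest probe set was at 12.13 and 12.08 in thymus, 2.67 and 2.72 in cortex, 2.80 and 2.73 in fibroblasts, 2.88 and 2.88 in pancreas and 4.70 and 5.20 in testis. Testis was here above pancreas by 2.07 (adjusted p = 0.000142), and the remaining sources were at the floor and did not pass the test against each other. On the rhesus arrays testis and pancreas differed by 0.34 (standard error 0.166, adjusted p = 0.105).

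The other human probe sets of GATA3 did not repeat between the thymus arrays. The probe set 209603_at was at 3.71 and 5.89 in thymus, against 2.38 to 2.49 on the 8 other arrays. It was called higher, at 2.37 (0.502, adjusted p = 0.0154), and the difference was 1.28 without the thymus array at 5.89 and 3.46 without that at 3.71. The probe set 209602_s_at was at 4.51 and 2.98 in thymus, against 2.72 to 2.84 on the others, and was not called at 0.98 (0.352, adjusted p = 0.101). The array that was higher in 1 of these probe sets was lower in the other. Without the thymus array at 2.98 the difference of 209602_s_at was 1.74 (adjusted p = 6.16e-06), and with the spiked controls subtracted it was 1.16 (adjusted p = 0.0327).

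MYB, a factor of dividing immature thymocytes, had its second highest level in testis. The brightest rhesus probe set was at 11.94 and 11.84 in thymus, 2.80 and 2.83 in cortex, 2.83 and 2.83 in fibroblasts, 2.89 and 2.84 in pancreas and 6.02 and 6.25 in testis. The brightest human probe set was at 10.17 and 10.12 in thymus, 2.65 and 2.65 in cortex, 2.58 and 2.54 in fibroblasts, 2.67 and 2.58 in pancreas and 4.87 and 4.79 in testis. On both array types the sources thus fell into 3 levels that did not overlap, thymus, testis and the floor. Thymus minus the other sources was 8.23 (0.0632, adjusted p = 3.90e-09) for the rhesus probe set and 6.98 (0.0329, adjusted p = 2.32e-09) for the human one. Testis was above the next source by 3.27 (0.080, adjusted p = 4.78e-07) and by 2.18 (0.042, adjusted p = 3.79e-07), whereas cortex, fibroblasts and pancreas did not pass the test against their neighbours. A second rhesus probe set gave 4.82 (0.0513) but had testis at 2.36 and 2.37, at the floor. A second human probe set, 215152_at, was at 2.82 and 2.98 in thymus and between 2.73 and 2.99 on the others, and was not called.

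BCL11B, the zinc finger repressor that seals T lineage commitment and that also serves neurons of the cortex, showed a further source on the human arrays. The human probe set 222895_s_at was at 11.82 and 11.85 in thymus, 7.10 and 7.15 in cortex, 3.75 and 2.91 in fibroblasts, 3.09 and 2.72 in pancreas and 6.33 and 6.32 in testis. The probe set 219528_s_at was at 11.38 and 11.38 in thymus, 6.13 and 6.38 in cortex, 3.52 and 3.58 in fibroblasts, 3.69 and 3.65 in pancreas and 5.80 and 5.71 in testis. Cortex and testis lay between thymus and the other sources in both. In 222895_s_at cortex and testis did not pass the test against each other (0.80, standard error 0.267, adjusted p = 0.0956), and testis was above fibroblasts by 3.00 (adjusted p = 0.000417). The third human probe set, 224310_s_at, was at 8.58 and 8.54 in thymus and at 2.63 to 2.83 on all other arrays. The single rhesus probe set was at 8.30 and 8.21 in thymus and at 2.45 to 2.83 on all others, cortex included at 2.77 and 2.83. Cortex was above testis in 219528_s_at by 0.50 (adjusted p = 0.00638), below the minimum for a call. Thymus was thus far above the rest in all 4 probe sets, while a cortex level above the floor was seen in 2 of them. The thymus differences were 5.61 (0.0419) for the rhesus probe set and 6.92 (0.211), 6.57 (0.0659) and 5.82 (0.0506) for the human ones.

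TCF7 and LEF1 encode the HMG box factors TCF-1 and LEF-1, which act with beta-catenin and early in T cell specification. TCF7 was read by 3 rhesus probe sets. The brightest was at 13.37 and 13.37 in thymus, 2.80 and 3.10 in cortex, 6.98 and 6.94 in fibroblasts, 4.00 and 3.56 in pancreas and 8.10 and 8.11 in testis. All 5 sources took separate levels in it, in the order thymus, testis, fibroblasts, pancreas and cortex. The steps were 5.26, 1.14, 3.19 and 0.83 with adjusted p between 9.18e-07 and 0.00375, the last of them below the minimum difference for a call. The other probe sets, 2 whose identifiers share a number, had thymus at 11.26 and 11.20 and at 7.86 and 8.16. Fibroblasts were at 2.86 and 3.10 and at 2.26 and 2.28 in them, at the floor. Testis was at 4.02 and 4.52 and at 2.26 and 2.22. The level in fibroblasts therefore appeared in 1 of 3 probe sets, while the thymus differences were 7.92 (0.121), 8.08 (0.187) and 5.72 (0.0728).

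LEF1 was read by 3 human probe sets. The brightest was at 11.45 and 11.38 in thymus, 3.86 and 3.73 in cortex, 2.65 and 2.69 in fibroblasts, 2.71 and 2.71 in pancreas and 6.74 and 6.67 in testis. The order was thymus, testis, cortex, and then pancreas and fibroblasts, which did not pass the test against each other. Thymus was above testis by 4.71, testis above cortex by 2.92 and cortex above pancreas by 1.08, with adjusted p of 8.99e-08, 2.76e-07 and 1.78e-05. The probe set 210948_s_at was at 11.09 and 10.99 in thymus, 3.99 and 3.75 in testis and 3.08 to 3.19 on the 6 remaining arrays. Their thymus differences were 7.45 (0.0406) and 7.72 (0.0636). The third, 221557_s_at, was at 5.91 and 4.29 in thymus and 3.71 to 3.89 on the others. Its difference of 1.32 (0.371, adjusted p = 0.0462) lost the call after quantile normalization, with the replicate number as a block, in the ordinary contrast and without any 1 of 9 arrays. Without the thymus array at 5.91 it was 0.51, and without that at 4.29 it was 2.12 and called.

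IKZF1, which encodes the chromatin regulator Ikaros of all lymphocytes, was read by 7 rhesus and 9 human probe sets. All 7 rhesus probe sets and 6 of the 9 human ones were called higher in thymus and were higher there than in each other source. The 7 rhesus differences ran between 3.53 and 8.31, and the 6 human ones between 3.00 and 8.63. The brightest rhesus probe set was at 12.05 and 12.11 in thymus, 5.17 and 5.28 in cortex, 3.79 and 4.33 in fibroblasts, 7.92 and 7.75 in pancreas and 6.37 and 6.36 in testis. Each step in the order thymus, pancreas, testis, cortex and fibroblasts was called, with adjusted p between 2.63e-06 and 0.00154. A probe set whose identifier has the same number had thymus at 11.83 and 11.89 but pancreas at 3.25 and 3.41. In it cortex was at 2.98 and 2.98 and testis at 5.82 and 5.57. In 4 more rhesus probe sets pancreas was between 3.04 and 4.33, and in the last it was at 2.50 and 2.42. A pancreas mean of 7.84 was thus seen in 1 of 7 probe sets.

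On the human arrays the widest difference of IKZF1 was that of 227346_at, at 11.93 and 11.78 in thymus, 2.58 and 2.63 in cortex, 2.51 and 2.49 in fibroblasts, 2.71 and 2.65 in pancreas and 5.39 and 4.88 in testis. Testis was above pancreas there by 2.45 (adjusted p = 8.49e-05), and the remaining 3 sources were at the floor. The probe set with the highest mean, 205039_s_at, was at 8.33 and 8.49 in thymus and between 3.95 and 5.15 on the others, with a difference of 4.05 (0.172). The probe sets that were not called, 220704_at, 227344_at and 1565816_at, lay between 2.20 and 3.79 on all arrays. Their differences were -0.08, -0.01 and -0.02.

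**Figure D2:**
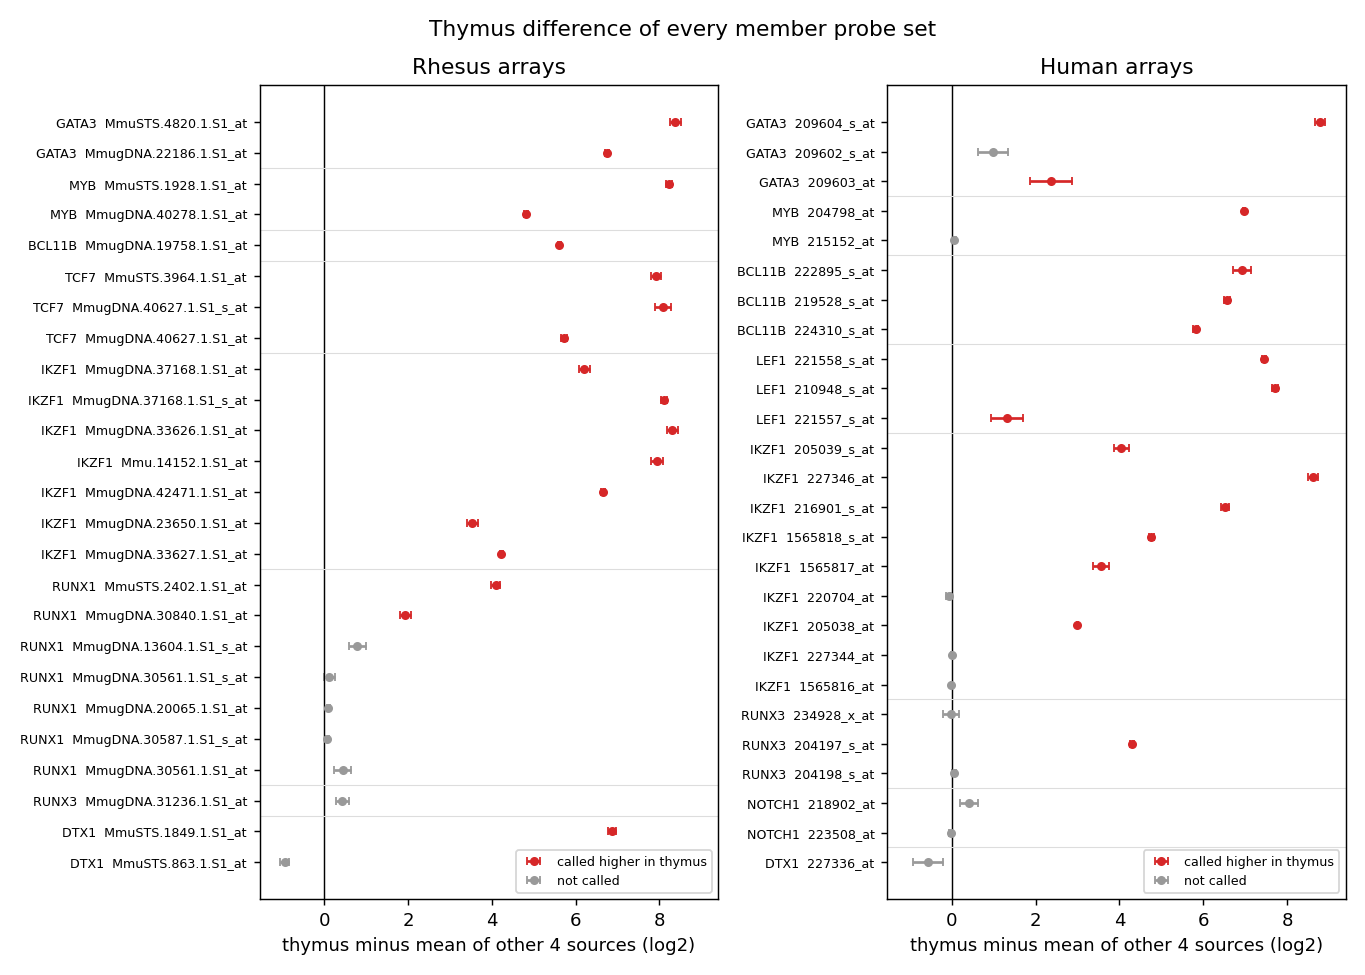
Thymus minus the mean of the other 4 sources (horizontal axis, log2) for every probe set of the 10 genes, rhesus arrays left and human arrays right, grouped by gene. Points are estimates, bars standard errors from 10 arrays per type, and red marks a call. The probe sets of IKZF1 range between 3.53 and 8.31 on the rhesus arrays, and those of RUNX1 between 0.07 and 4.09.

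The RUNX genes encode DNA binding partners of CBFB. RUNX1 was read by 7 rhesus probe sets, of which 2 were called higher in thymus. The brightest was at 8.63 and 8.60 in thymus, 2.52 and 2.62 in cortex, 8.02 and 7.90 in fibroblasts, 4.05 and 3.64 in pancreas and 3.75 and 3.74 in testis. Thymus and fibroblasts stood together above the other sources. Thymus minus the mean of the others was 4.09 (0.101, adjusted p = 3.00e-07), but thymus minus fibroblasts was 0.66 (0.127, adjusted p = 0.00614), which passed the adjusted p and not the minimum difference. Fibroblasts were above pancreas by 4.12 (adjusted p = 1.12e-06). The probe set MmugDNA.30840.1.S1_at was at 4.97 and 4.74 in thymus and at 2.89 and 3.39 in fibroblasts, with thymus above fibroblasts by 1.71 (adjusted p = 0.000212). Another, MmugDNA.13604.1.S1_s_at, was at 3.54 and 3.09 in thymus, 1.72 and 2.27 in cortex and 3.24 and 3.71 in fibroblasts. Its difference of 0.79 (0.193, adjusted p = 0.0142) was below the minimum, and without the thymus array at 3.09 it was called at 1.02, while without that at 3.54 it was 0.57. The remaining 4 had source means between 1.64 and 2.88, all at or below the floor, and were not called.

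RUNX3 was near the floor in most of its probe sets. The rhesus probe set was at 3.50 and 2.86 in thymus and between 2.64 and 2.91 on all other arrays, with a difference of 0.43 (0.151, adjusted p = 0.0588) that was not called. Of the 3 human probe sets, 204197_s_at was at 6.22 and 6.45 in thymus and between 2.01 and 2.05 on the 8 others. It was called at 4.30 (0.0542, adjusted p = 9.63e-08), and the other sources in it did not pass the test against their neighbours. The probe set with the highest mean, 234928_x_at, was at 2.95 and 2.96 in thymus, against 2.85 and 2.87 in cortex, 2.83 and 2.89 in fibroblasts, 3.80 and 2.95 in pancreas and 2.82 and 2.81 in testis. It gave -0.02 (0.196, adjusted p = 0.917), so the count of 5 higher genes on the human arrays leaves RUNX3 out. The count was 6 when genes were read from the probe set with the largest spread or from the mean of all probe sets.

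NOTCH1 was read on the human arrays only, at low levels, and mismatches of its probes with rhesus RNA were not examined. The brightest of its 2 probe sets was at 4.17 and 3.60 in thymus, 3.56 and 3.57 in cortex, 3.56 and 2.89 in fibroblasts, 3.57 and 3.60 in pancreas and 3.67 and 3.37 in testis. The lower thymus array lay below the higher testis array and next to those of cortex and pancreas, and the difference of 0.41 (0.215, adjusted p = 0.227) was not called. The other probe set lay between 2.58 and 2.82 on all arrays, within the floor. No neighbours in the order of sources passed the test for NOTCH1 at these levels.

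DTX1, the ubiquitin ligase, was read differently by its 3 probe sets. The rhesus probe set MmuSTS.1849.1.S1_at was at 10.14 and 10.04 in thymus, 3.66 and 3.30 in cortex, 3.15 and 2.99 in fibroblasts, 3.02 and 3.16 in pancreas and 3.24 and 3.29 in testis, a difference of 6.87 (0.10, adjusted p = 3.95e-08). The rhesus probe set MmuSTS.863.1.S1_at was at 3.42 and 3.46 in thymus, 5.18 and 4.75 in cortex, 3.33 and 3.44 in fibroblasts, 3.75 and 3.71 in pancreas and 5.45 and 5.47 in testis. Its difference was -0.94 (0.101, adjusted p = 0.000288), short of the minimum for a call, but thymus was called lower than testis, at -2.02 (adjusted p = 3.26e-05), and than cortex, at -1.52 (adjusted p = 8.04e-05). The human probe set 227336_at was at 3.92 and 3.98 in thymus and between 3.26 and 6.21 on the others, with the pancreas arrays at 6.21 and 4.93, and was not called at -0.57 (0.357, adjusted p = 0.296), while thymus was called lower than pancreas alone, at -1.62 (0.451, adjusted p = 0.0264). These 3 contrasts of DTX1 were the ones in which a member probe set was called lower in thymus than in a single source. A thymus level far above the other sources was therefore seen in 1 of 3 probe sets of DTX1.

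**Figure D3:**
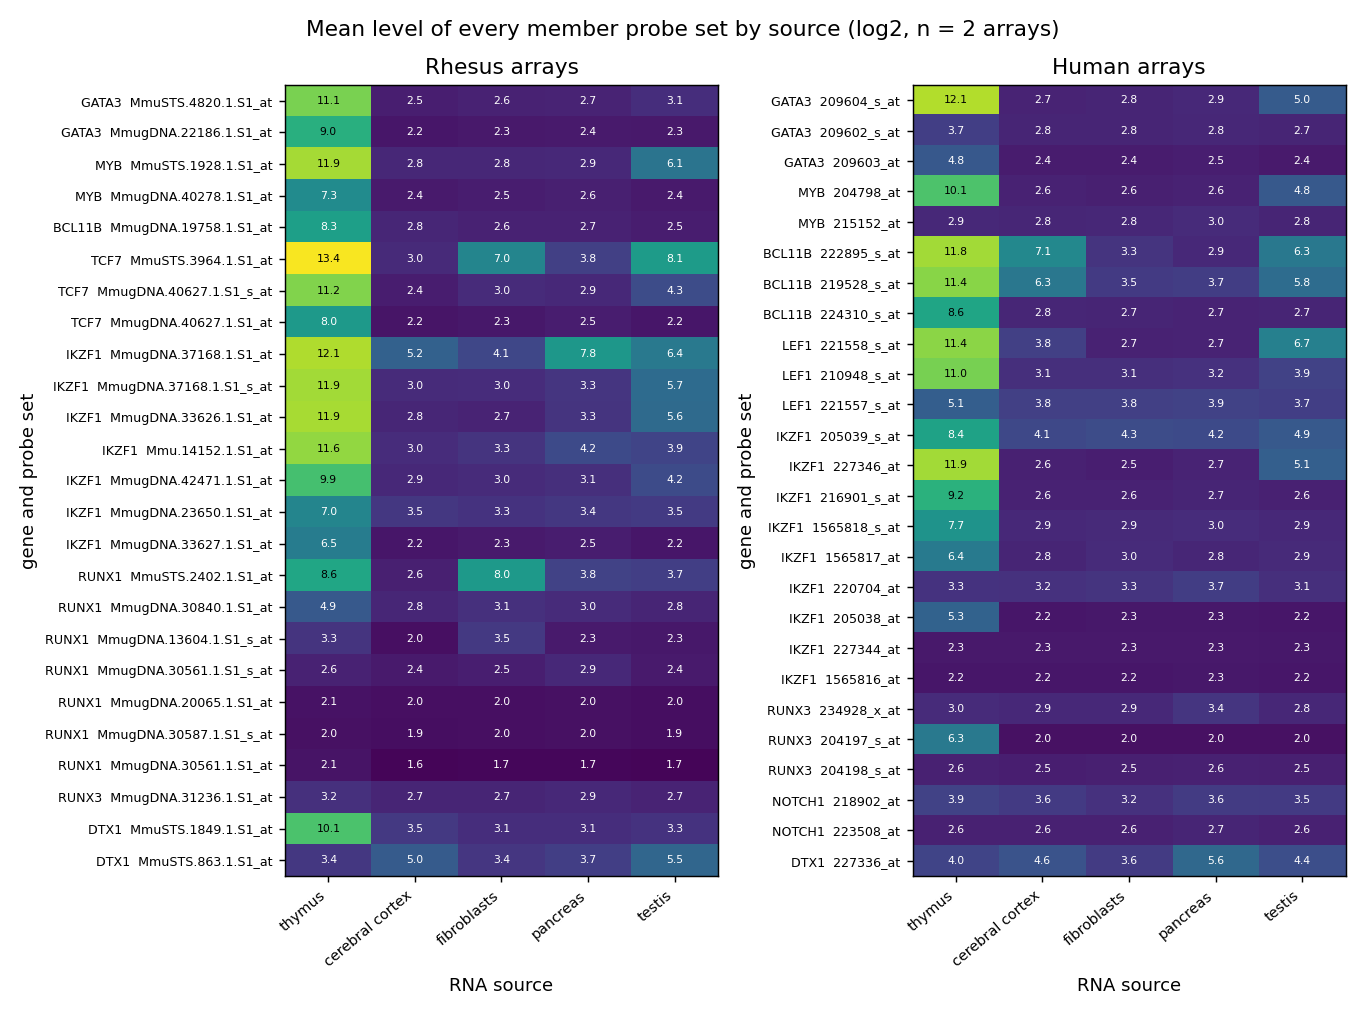
Mean log2 level of every probe set (rows, by gene) in the 5 sources (columns), rhesus arrays left and human arrays right. Colour and the printed value give the mean of 2 arrays. The thymus column is bright for most genes, and other sources with a mean above 6 are testis (MYB, TCF7, IKZF1, BCL11B, LEF1), cortex (BCL11B), fibroblasts (TCF7, RUNX1) and pancreas (IKZF1).

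Markers of white blood cells in general were also highest in thymus. All 5 general leukocyte markers, among them the phosphatase PTPRC, were higher in thymus on both array types, beside 16.7% (rhesus) and 9.65% (human) of all genes. Their mean level per array was 11.53 to 11.56 in thymus, against 7.05 to 7.12 in testis, 6.08 to 6.64 in pancreas, 5.26 to 5.33 in cortex and 3.27 to 3.50 in fibroblasts (rhesus arrays). For the human arrays it was 8.60 to 8.63 in thymus, against 4.38 to 4.61 in testis, 2.99 to 3.03 in pancreas, 3.95 to 4.11 in cortex and 2.78 to 2.86 in fibroblasts. Testis was thus second in this list, as it was in the brightest probe sets of MYB, LEF1 and TCF7 and in that of GATA3 on the human arrays. Cortex was second in the brightest human BCL11B probe set, where it did not pass the test against testis, and pancreas in that of IKZF1 on the rhesus arrays, and testis was at the floor in other probe sets of MYB and TCF7. The part of leukocytes in these levels was not tested. Fibroblasts were lowest in the leukocyte list on both array types. They were second in the brightest RUNX1 probe set, at 8.02 and 7.90, and above pancreas and cortex in that of TCF7. The thymocyte markers too had their second highest mean level in testis, at 7.03 to 7.10 (rhesus) and 3.88 to 3.92 (human). The rhesus mean includes CD1E, which was highest in testis and above the floor in all 5 sources. The other 5 of the 6 rhesus markers were highest in thymus. Of the B cell markers 3 of 4 (rhesus) and 2 of 5 (human) were higher in thymus, with mean levels of 5.40 to 5.61 and 4.36 to 4.56 there. Outside thymus these ran from 3.11 to 3.89 and from 3.10 to 3.64. Of the macrophage markers 2 of 5 were higher on each array type, and 1, CD68, was lower on the rhesus arrays, at -1.57 (0.351). The mean levels of this list were 6.86 to 7.16 and 5.04 to 5.24 in thymus, against 4.45 to 6.25 and 3.48 to 4.21 elsewhere. The part of these cells in the thymus values was not tested.

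The paralogues of the 10 genes were called in both directions. The rhesus arrays measured 20, of which 8 were higher in thymus and 4 lower, beside 16.7% and 18.1% of all genes. The human arrays measured 22, of which 6 were higher and 3 lower, beside 9.65% and 10.1% of all genes. The medians were 0.12 and -0.03, beside -0.06 and -0.04 over all genes. Called higher on both array types were BCL11A, IKZF2, IKZF3, RUNX2, NOTCH3 and DTX3L. IKZF2, which encodes Helios, differed by 5.34 (0.106, rhesus) and 7.35 (0.254, human), and IKZF3, which encodes Aiolos, by 3.13 (0.0708) and 6.13 (0.0308). Both were higher in thymus than in each other source, as were the receptor NOTCH3, at 3.71 (0.162) and 2.77 (0.254), and the ubiquitin ligase DTX3L, at 2.14 (0.112) and 2.27 (0.208). BCL11A, a repressor that acts in B cells and neurons, was at 4.24 (0.142) and 4.55 (0.303). Its mean level, however, was 9.77 in thymus and 9.31 in cortex on rhesus arrays, and 11.01 and 10.41 on human ones. RUNX2, the factor of bone, was at 2.11 (0.176) and 1.69 (0.0630), with 7.26 in thymus and 9.22 in fibroblasts on rhesus arrays, and 7.33 in thymus and 9.53 in fibroblasts on human ones. Thus for BCL11A and RUNX2 another source was near or above thymus. GATA4 and GATA6, factors of endoderm and gonad, were lower in thymus on both, GATA6 by -4.27 (0.0939) and -3.94 (0.119) and GATA4 by -2.98 (0.0716) and -1.27 (0.198). GATA6 was at 2.86 in thymus, 9.50 in pancreas and 9.73 in testis on the rhesus arrays.

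**Figure D4:**
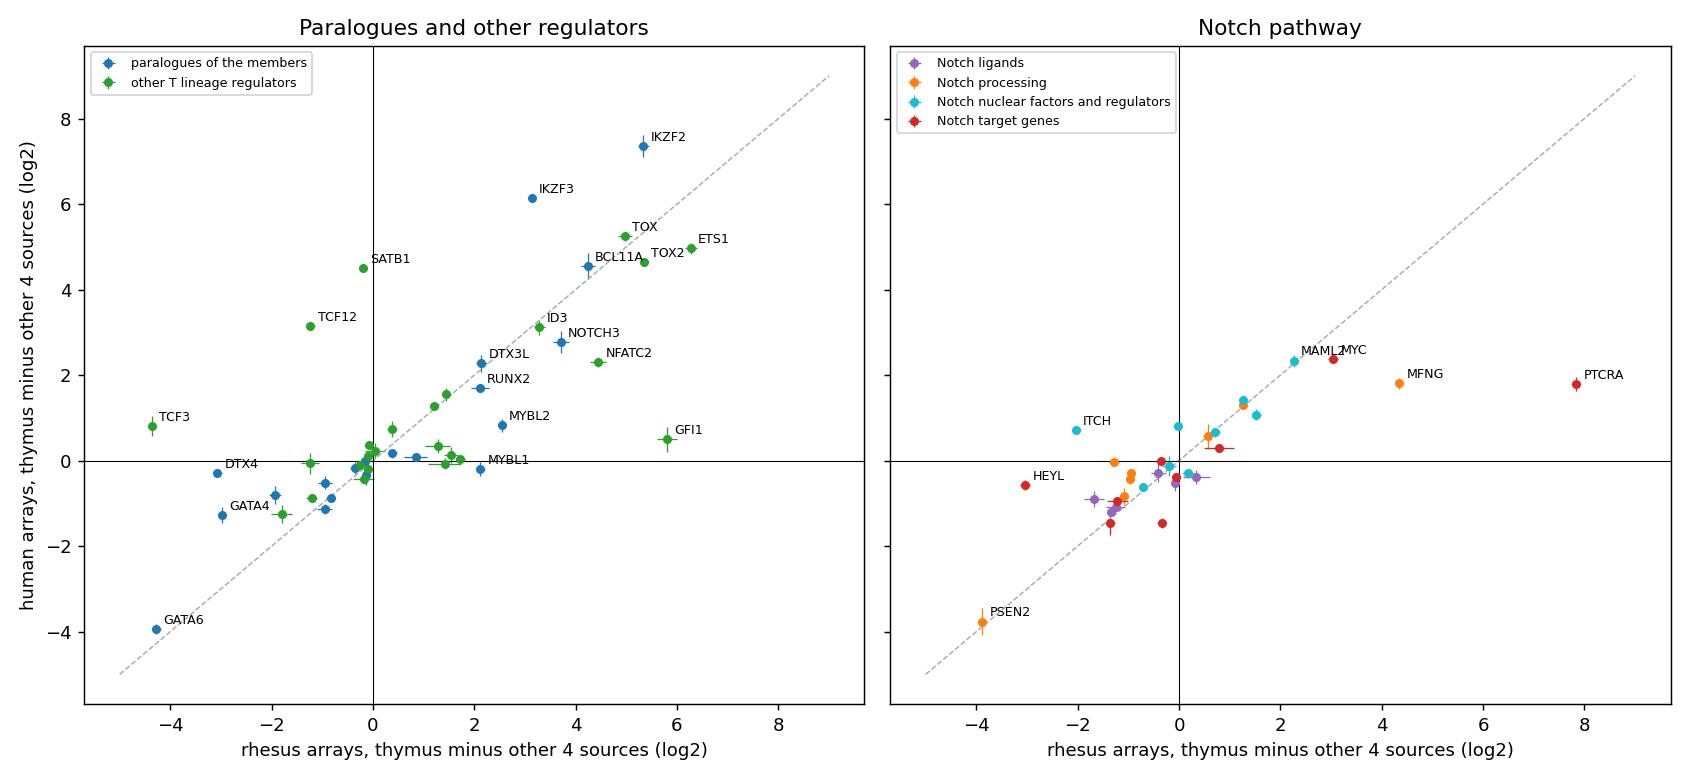
Thymus minus the mean of the other 4 sources (log2) with rhesus arrays along the horizontal axis and human arrays up the vertical one, for paralogues and other T lineage regulators (left) and for the Notch pathway (right). Points are genes read from their brightest probe set, bars are standard errors, the dashed line marks equal differences, and genes beyond 2 on either axis are named. IKZF2 and ETS1 lie at the upper right and GATA6 at the lower left, while most Notch pathway genes lie within 2 of 0 on both axes.

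The Notch pathway around NOTCH1 held genes called in both directions. Over all genes 16.7% were higher and 18.1% lower (rhesus), and 9.65% higher and 10.1% lower (human). None of the 6 ligands was higher in thymus on either array type by limma, nor at an unadjusted p below 0.05 by limma or the ordinary contrast, and 3 (rhesus) and 2 (human) were lower. JAG1 was lower by -1.25 (0.186) and -1.08 (0.0716) and DLK1, an atypical ligand, by -1.35 (0.0664) and -1.20 (0.0708). DLL4, the ligand that thymic epithelium presents, was at 0.34 (adjusted p = 0.348) and -0.38 (adjusted p = 0.152) and was not called. Of the genes that process the receptor and ligands, the rhesus arrays gave 2 higher and 3 lower of 8, and the human arrays 2 higher and 1 lower of 13. The glycosyltransferase MFNG was higher by 4.34 (0.0683) and 1.81 (0.126) and the protease ADAM10, which cuts the receptor, by 1.27 (0.0554) and 1.30 (0.0740). The secretase subunit PSEN2 was lower by -3.88 (0.0713) and -3.76 (0.313). When a gene was read as the mean of its probe sets, 1 rhesus and 0 human processing genes were higher. Ligands lower in thymus then numbered 1 (rhesus) and 0 (human). The coactivators MAML1 and MAML2, which bind the cut receptor in the nucleus, were higher by 1.53 and 2.26 on the rhesus arrays and by 1.08 and 2.33 on the human arrays, and the corepressor SPEN by 1.26 and 1.41. In that list of nuclear factors and regulators the rhesus arrays gave 3 higher and 1 lower of 9, and the human arrays 3 higher of 10, with none lower by limma and 2 lower at an unadjusted p below 0.05 (1 by the ordinary contrast). Among 9 and 10 Notch target genes 2 were higher on each array type, the receptor chain PTCRA at 7.84 (0.0446) and 1.79 (0.169) and the growth regulator MYC at 3.04 (0.101) and 2.37 (0.0602), and 3 and 2 were lower. HEY2, a repressor that acts in the heart and vessels, was lower by -1.36 (0.0927) and -1.45 (0.291).

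Partners of the factors and further regulators of T cells were called in both directions, and the shares over all genes, 16.7% higher and 18.1% lower (rhesus) and 9.65% higher and 10.1% lower (human), stand beside these counts. Of the partners the rhesus arrays gave 3 higher and 2 lower of 12, and the human arrays 5 higher of 16, with none lower by limma and 3 lower at an unadjusted p below 0.05, as in the ordinary contrast. CBFB, the common partner of the RUNX factors, was higher by 2.37 (0.0804) and 3.43 (0.248), the corepressor TLE3, which binds TCF-1 and LEF-1, by 3.11 (0.178) and 1.61 (0.0375), and the deacetylase HDAC1 by 3.06 (0.0390) and 2.79 (0.218). All 3 were higher in thymus than in each other source on both array types. Of the other T lineage regulators the rhesus arrays gave 13 higher and 5 lower of 26, and the human arrays 12 higher and 1 lower of 32. Among the 7 that were higher on both array types the largest differences were those of ETS1, at 6.27 (0.119) and 4.96 (0.130), TOX, at 4.98 (0.144) and 5.25 (0.101), TOX2, at 5.35 (0.0518) and 4.64 (0.0788), and NFATC2, at 4.45 (0.158) and 2.30 (0.110). TCF12, an E protein and the single gene of these lists with opposite calls, was at -1.24 (0.0880) and 3.15 (0.0344). Of 17 genes of the T cell surface, receptor signalling and recombination, many of them known to be controlled by the factors, 8 of the 9 with rhesus probe sets were higher, and 13 of 17 with human ones. The coreceptor genes CD8A and CD8B differed by 7.97 and 7.82 on the rhesus arrays and by 5.98 and 6.86 on the human arrays.

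The genes nearest to the listed genes in their levels over the 5 sources were found by a distance. For each of 11956 genes on both array types the 10 source means, 5 per array type, were centred. These means were set against the median profile of the 6 listed genes read on both, DTX1 included. The smallest Euclidean distances outside the list were those of SASH3, a lymphocyte adaptor, at 1.31, the kinase ZAP70 at 1.41, the cytokine gene LTB at 1.42, ZBED2 at 1.42 and CYTIP at 1.45 on the log2 scale. Of the 6 listed genes, which make up the median, IKZF1 was nearest, at 2.92 and rank 61. BCL11B at 3.27, MYB at 3.46 and GATA3 at 3.75 followed. DTX1, at 5.63, and RUNX3, at 7.46 and rank 3182, were farthest. The distance is a description over 10 means that share arrays and has no test.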

How the data were processed

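For each array type the authors deposited a table with a log2 value for every probe set on every array. The submitters' processing notes name RMA; its version is not given in the sources used here. In its methods the study states that replicate arrays were quantile normalized in its probe-level work, and does not say whether this holds for the deposited values. Both tables were used as deposited and each was fitted by itself, so levels were not tested across them. Biotinylated cRNA had been made from 5 ug of total RNA. The array type of a sample was taken from its table. Symbols came from the array annotation, and 24629 of 24969 rhesus probe sets with 1 symbol matched a rhesus gene table by gene number, with 0 symbols changed.

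limma 3.58.1 in R 4.3.3 (lmFit, eBayes) was run, controls left out, on 52766 rhesus and 54613 human probe sets, with sources as groups and all 10 pairwise contrasts, and p-values were adjusted over all probe sets. The brightest probe set of a gene, by its mean over 10 arrays, stood for the gene. Alternatives were 3 normalizations, dim probe sets filtered out, calls with no minimum difference, an ordinary contrast, a replicate block, each array left out, no ambiguous probe sets and 2 other readings of a gene.

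The text names every member, paralogues called on both array types, up to 4 genes per other list with the largest difference called in 1 direction on both, and the 5 nearest genes by profile. DLL4 and TCF12 were named after their values were seen. Members and lists were chosen with earlier results of these data known.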

Additional observations from a re-analysis of the deposited data

How the results depend on the processing

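Over 20 settings per array type, that of the report included, the counts of member genes higher in thymus stayed at 7 on the rhesus arrays and at 5 or 6 on the human arrays. The count of member probe sets lower in thymus on the rhesus arrays was 1 in place of 0 without a minimum difference, the second probe set of DTX1. The pathway list genes lower in thymus then numbered 33 in place of 21 (rhesus) and 26 in place of 9 (human), and 3 on the human arrays where a gene was its probe sets' mean. Without probe sets whose identifiers mark several transcripts, 5 of 12 human member probe sets were higher in place of 16 of 26. Of the 14 left out 11 were higher, among them every probe set of BCL11B and LEF1. Member genes were not counted in this setting, so the gene counts given above do not cover it. The brightest human probe set of RUNX3, at -0.02, changed sign with quantile normalization (0.0030), array medians subtracted (0.015), spiked controls subtracted (0.16) and over single arrays left out (from -0.13 to 0.081), none of them a call, and with other readings of the gene (1.44 from the mean of its probe sets and 4.30 from the 1 with the largest spread, both called). The other 298 values of member genes kept direction and side of the threshold, and 578 counts over single pathway lists stayed within 1.5 times while 30 moved further. The replicate number did not pair the arrays (correlations of deviations from -0.034 to 0.018 over both types), and with it as a replicate block 18 rhesus and 15 human member probe sets were higher. With each array left out the counts of higher member probe sets ranged from 18 to 19 (rhesus) and from 15 to 17 (human). The number of arrays, 2 per source, limits all values, and differences between levels at the floor could not be read.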
